A study of Mus musculus with 2 samples.

Results

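The interferon regulatory factors are a family of transcription factors, and 9 genes chosen by symbol are described here: Irf1, Irf2, Irf3, Irf4, Irf5, Irf7, Irf8, Irf9 and the family's corepressor Irf2bp2. They are 9 of 55536 annotated genes, and they carry 71 annotated transcript models. The rule is the list of symbols.

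Members of the family bind GAAA repeats in interferon-stimulated response elements through a conserved amino-terminal domain. Irf3, Irf5 and Irf7 are held latent and are activated by phosphorylation downstream of Toll-like receptors and nucleic acid sensors, Irf9 acts with Stat2 in the answer to type I interferon, Irf1 and Irf2 are the classical activator and repressor that share binding sites, and Irf8 and Irf4 bind with Spi1 (PU.1) at composite elements in myeloid and lymphoid cells. In macrophages the activated factors drive Ifnb1, the gene of interferon beta, and Irf8 also acts in the development of myeloid cells.

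Bone marrow derived macrophages of mouse strain C57BL/6J had received Lipid A, the part of lipopolysaccharide that Toll-like receptor 4 senses, at 100 ng/ml for 10 min. RNA of a nuclear fraction, called nucleoplasmic in one label field and nucleus in another, was depleted of ribosomal RNA and sequenced as 2 libraries of 1 group. Replicate 1 started from 1 µg and replicate 2 from 500 ng of RNA. The labels number them as biological replicates, yet both carry the same donor identifier, so the spread between them may be partly technical. Age and sex were not collected, per the labels. Untreated cells were not analysed here, so no value below is a response to Lipid A and no p-value is given.

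The libraries held 19153465 expected counts on annotated genes in replicate 1 and 11622346 in replicate 2. All 8 macrophage markers were at 1 TPM or more in both libraries, in the gene tables, whereas 0 of 5 B cell, 0 of 6 T and NK cell and 0 of 7 dendritic cell markers were. By a second deposited quantification, 1 T and NK cell marker (Cd3d, 2.53 and 10.1 TPM) and 1 dendritic cell marker (Siglech, 1.22 and 1.72 TPM) passed that limit. Of 7 neutrophil and progenitor markers, 1 (S100a8) passed it in the gene tables. TPM, the length-corrected transcript abundance, divides counts by effective length, so levels are compared between genes on that scale. Where a value carries ±, it is the mean and SD of both libraries (n = 2). Positions refer to mm10 and the GENCODE M21 annotation.

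Of the 9 members, 8 stood at 1 TPM or more in both libraries, against 46.0% of 22028 protein-coding genes. Irf4 was the exception. The 8 detected members ranged from 25.0 TPM for Irf9 to 71.4 TPM for Irf8 by mean, where the detected protein-coding genes had medians of 10.9 TPM (replicate 1) and 9.96 TPM (replicate 2). Among the detected coding genes the 8 lay between percentile 76.8, for Irf9 in replicate 2, and percentile 95.6, for Irf1 in replicate 1. In these bulk samples, fewer expressing cells and less RNA per cell cannot be told apart. The 9 genes together came to 449 TPM in replicate 1 and to 330 TPM in replicate 2.

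**Figure D1:**
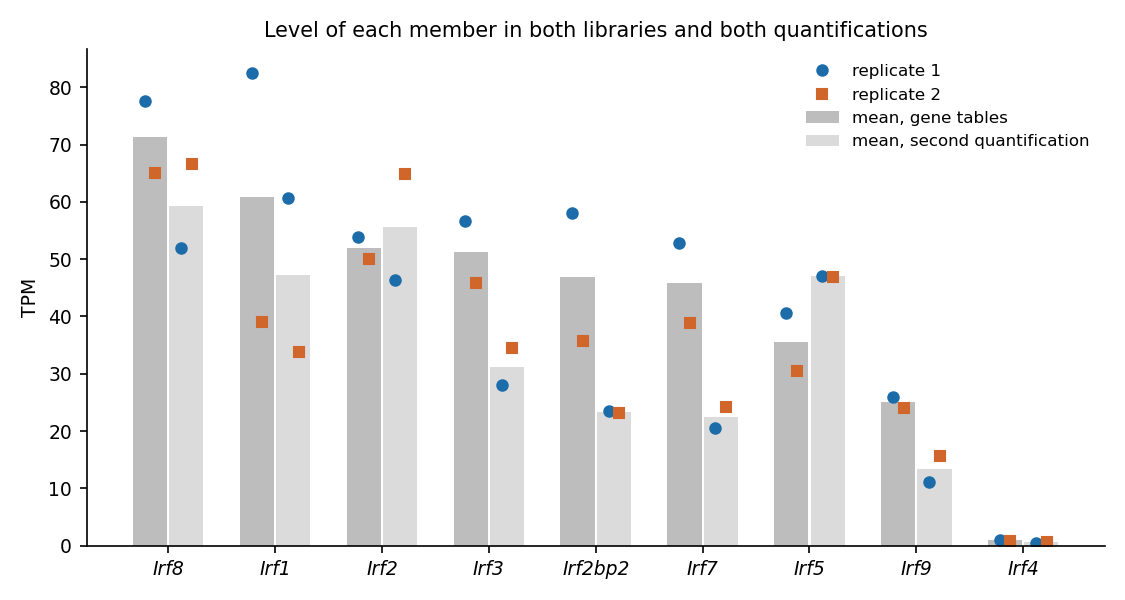
TPM of each member (y axis, linear) in the gene tables and in the second quantification. Bars are means of the 2 libraries and points are the libraries. Irf4 lies near 0 in both, and Irf1 and Irf2bp2 have the widest spread between libraries in the gene tables.

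Among the lineage factors, Irf8 (chr8:120736358-120756694, plus strand) had 77.7 TPM in replicate 1 and 65.1 TPM in replicate 2, on 4485 and 2453 expected counts. The mean of 71.4 ± 8.9 TPM was the highest of the 9, although Irf1 exceeded it in replicate 1. Irf4 (chr13:30749226-30766976, plus strand), the factor of plasma cells and of alternatively activated macrophages, had 0.94 TPM on 96 counts and 0.88 TPM on 58 counts. Its mean of 0.91 ± 0.0424 TPM lay just under the detection limit. The 95% Poisson intervals, 0.761 to 1.15 TPM in replicate 1 and 0.668 to 1.14 TPM in replicate 2, include 1 TPM, so its absence from the detected genes is within counting error. By the deposited posterior means, 1.22 and 1.34 TPM, it passed the limit. The split of Irf4 between its models differed between the libraries: Irf4-201 and Irf4-202 are 4764 and 4761 bases long and differ by 3 bases, and they were given 0.47 TPM each in replicate 1 but 0.88 and 0.00 TPM in replicate 2. Irf8 and Irf4 ranges did not overlap.

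Irf1 (chr11:53770014-53778374, plus strand), an early activator of interferon and antigen presentation genes, had 82.5 TPM in replicate 1 and 39.0 TPM in replicate 2, on 2407 and 869 counts. Its mean of 60.8 ± 30.8 TPM carries the largest SD of the 9. Irf2 (chr8:46739732-46847458, plus strand), its antagonist at shared sites, had 53.84 and 50.01 TPM, on 1868 and 1147 counts. The mean was 51.9 ± 2.71 TPM, inside the range of Irf1, so the levels of this activator and repressor were not separated by these libraries. Irf2bp2 (chr8:126588296-126593986, minus strand), a corepressor that binds the carboxy-terminal part of Irf2, had 58.0 and 35.8 TPM on 6333 and 2518 counts, with a mean of 46.9 ± 15.7 TPM. It had the most counts of the 9 genes in both libraries and, after division by length, took rank 3 by TPM in replicate 1 and rank 6 in replicate 2.

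The factors activated by phosphorylation come next, by the gene tables. Irf3 (chr7:44997648-45002848, plus strand), the Tbk1 substrate that starts Ifnb1 transcription, had 56.7 and 45.8 TPM on 976 and 546 counts (51.2 ± 7.71 TPM). Irf7 (chr7:141262706-141266481, minus strand), the amplifier of type I interferon, had 52.9 and 38.9 TPM on 2065 and 890 counts (45.9 ± 9.86 TPM). Irf5 (chr6:29526625-29541871, plus strand), which acts with Myd88 on inflammatory cytokine genes, had 40.5 and 30.4 TPM on 1799 and 864 counts (35.5 ± 7.13 TPM). Each of these 3 was higher in replicate 1. The range of Irf7 overlapped those of Irf3 and Irf5, but Irf3 and Irf5 did not overlap each other. Irf9 (chr14:55603571-55610030, plus strand), the DNA-binding partner of Stat2, was lower at 26.0 and 24.0 TPM on 1253 and 771 counts (25.0 ± 1.42 TPM). By the second quantification Irf5 (47.0 and 46.9 TPM) stood above Irf3 (28.0 and 34.5 TPM) and Irf7 (20.5 and 24.2 TPM). On TPM of that quantification Irf3 and Irf7 were higher in replicate 2. Its scaled counts, described below, placed both higher in replicate 1.

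By mean TPM the order was Irf8, Irf1, Irf2, Irf3, Irf2bp2, Irf7, Irf5, Irf9 and Irf4. Each of the first 6 neighbouring pairs had library ranges that overlapped, so the order from Irf8 to Irf5 is not resolved between neighbours. Irf5 stood apart from Irf9, and Irf9 from Irf4. Irf5, Irf9 and Irf4 took ranks 7, 8 and 9 in both libraries, while Irf1 took rank 1 in replicate 1 and rank 4 in replicate 2.

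Summing the second quantification over the transcripts of each gene gave 52.0 and 66.6 TPM for Irf8, 60.6 and 33.8 TPM for Irf1, and 46.4 and 64.9 TPM for Irf2. Irf5 came to 47.0 and 46.9 TPM, Irf3 to 28.0 and 34.5 TPM, and Irf7 to 20.5 and 24.2 TPM. Irf2bp2 had 23.5 and 23.2 TPM, Irf9 had 11.1 and 15.7 TPM, and Irf4 had 0.523 and 0.599 TPM. Irf8 was again highest by mean and Irf9 and Irf4 lowest, but Irf5 stood at rank 4, with a range apart from that of Irf3. Of the 8 members with a mean of 1 TPM, 0 were over 2-fold lower in both libraries than in the gene tables, where 0.740% of 10408 protein-coding genes were, and 0 were over 2-fold higher, where 1.61% were. That count rests on replicate 2. In replicate 1 alone 4 of 8 members (Irf3, Irf7, Irf9 and Irf2bp2) were over 2-fold lower, as were 29.6% of the protein-coding genes, and in replicate 2 alone 0 were, beside 0.874%. The median protein-coding gene had 0.588 times its gene-table TPM in replicate 1 and 0.857 times in replicate 2, so the scales differ as a whole.

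To set the libraries side by side without the TPM scale, expected counts were scaled by TMM, the trimmed mean of M values, and the log2 difference of replicate 1 minus replicate 2 was taken with a pseudocount of 1. Of the 9 members, 0 were over 2-fold apart on this scale. Over 11611 genes with a mean of at least 50 counts, 1.48% were over 2-fold higher in replicate 1 and 0.465% were over 2-fold lower. Irf1 was farthest apart at 0.72, with a 95% counting interval of 0.61 to 0.84. Irf2bp2 followed at 0.59 (0.52 to 0.65), then Irf7 at 0.47 (0.36 to 0.58) and Irf5 at 0.31 (0.20 to 0.43). Irf8 differed by 0.13 (0.05 to 0.20). The intervals of these 5 lay above 0, so their difference exceeds counting error. The intervals of Irf3 (0.09, from -0.06 to 0.24), Irf4 (-0.02, from -0.49 to 0.45), Irf2 (-0.04, from -0.15 to 0.07) and Irf9 (-0.04, from -0.17 to 0.09) included 0.

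The median of the 9 was 0.13, beside 0.00 over 9810 protein-coding genes, of which 3.97% were farther apart in either direction than Irf1. Irf1 was the only member beyond percentile 95 of these genes, which was 0.61. Scaled counts placed 6 of 9 members higher in replicate 1, on a scale where the median protein-coding gene stood at 0.00. TPM placed 9 of 9 there, on a scale where the median protein-coding gene was itself 0.09 higher. By TPM of the second quantification, Irf2 (46.4 and 64.9 TPM), Irf3, Irf4, Irf7, Irf8 and Irf9 were instead higher in replicate 2. Irf1 was higher in replicate 1 there, and Irf5 (47.0 and 46.9 TPM) and Irf2bp2 (23.5 and 23.2 TPM) were nearly equal. On that TPM scale the median protein-coding gene had 0.588 times its gene-table TPM in replicate 1 and 0.857 times in replicate 2. Scaled counts of the second quantification gave each member the same sign as those of the gene tables. Irf2bp2 had 0.61, Irf7 0.42, Irf5 0.35, Irf8 0.13 and Irf3 0.06, while Irf2 (-0.10), Irf4 (-0.05) and Irf9 (-0.03) were negative. On TPM of the gene tables the log2 difference of Irf1 was 1.08, and by scaled counts of the second quantification it was 0.95. The effective length of Irf1 in the gene tables was 1297 bases in replicate 1 and 1542 in replicate 2. Macrophage markers moved the same way, with a median log2 difference of 0.61 over 8 genes and 7 of the 8 higher in replicate 1. The RNA input and depth differ between the same libraries, and their part in the difference cannot be told apart.

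**Figure D2:**
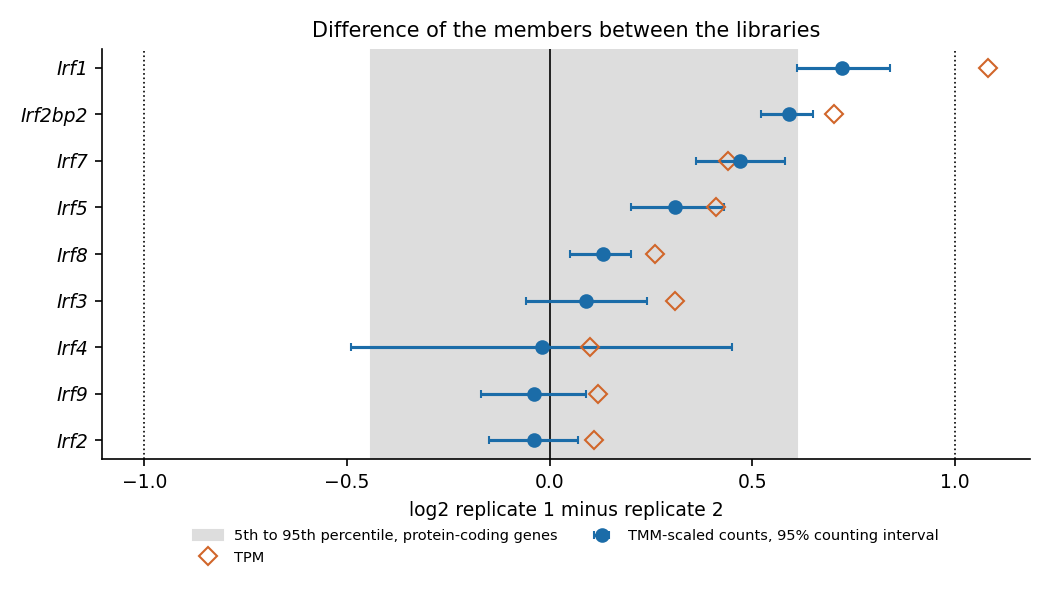
Log2 difference of replicate 1 minus replicate 2 for each member by TMM-scaled counts (filled points, bars are 95% counting intervals) and by TPM (open diamonds). The shaded band spans percentiles 5 to 95 of 9810 protein-coding genes (-0.44 to 0.61) and dotted lines mark 2-fold, which Irf1 passes on TPM alone.

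Starts of the members were searched for 3 elements, and those of Irf1 and Irf2 are shown because these factors share binding sites and differ in their spread between libraries. The elements were the GAS site TTCNNNGAA bound by Stat factors, the core GAAANNGAA of interferon-stimulated response elements, and the NF-kB consensus, on both strands, in RefSeq promoters of GRCm38.p6 from 250 bases before to 50 bases after each start. All 9 members matched, with 12 promoters. The 250 bases before the start of Irf1 (chr11:53769764-53770013, plus strand) and of Irf2 (chr8:46739495-46739744, plus strand) are shown 5′ to 3′ with matches in capitals.
Irf1 promoter: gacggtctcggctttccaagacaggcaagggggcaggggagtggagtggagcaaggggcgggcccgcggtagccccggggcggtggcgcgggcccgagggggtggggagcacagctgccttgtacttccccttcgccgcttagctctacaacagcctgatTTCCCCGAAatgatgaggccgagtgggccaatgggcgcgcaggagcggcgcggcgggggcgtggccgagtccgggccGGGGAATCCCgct
Irf2 promoter: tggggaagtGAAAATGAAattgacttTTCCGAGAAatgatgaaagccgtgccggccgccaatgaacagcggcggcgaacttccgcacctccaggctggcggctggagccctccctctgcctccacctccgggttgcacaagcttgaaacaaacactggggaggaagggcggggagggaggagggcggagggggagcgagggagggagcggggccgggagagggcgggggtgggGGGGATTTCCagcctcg
In Irf1 the GAS match began at -90 and the NF-kB match at -13 from the start. In Irf2 the response element core began at -241, the GAS match at -224 and the NF-kB match at -17. The other annotated start of Irf1 held no match. Irf8 held GAS matches at -171 and -153 in its first promoter, and Irf2bp2 held a response element core at -141. In the other promoters searched no match was found. Among all 32851 promoters, 8.30% held a GAS match, 8.56% the response element core and 8.46% the NF-kB consensus. Of the 12 member promoters, 1 each of Irf1, Irf2 and Irf8 held a GAS match. The core was in 1 each of Irf2 and Irf2bp2, and the NF-kB consensus in 1 each of Irf1 and Irf2. All 3 elements also occur in many promoters outside the members. The shares were not tested against each other, and no occupancy was measured.

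Transcript tables split each gene into annotated models, of which some are typed as retained intron, meaning a noncoding model that keeps intron sequence between exons. Irf3 and Irf7 have 6 such models each, Irf2 has 4, Irf9 has 3, Irf8 has 2 and Irf1 has 1, whereas Irf4, Irf5 and Irf2bp2 have none. The deposited values assign reads to models, so reads of unspliced precursor RNA and of a stable intron-retaining transcript cannot be told apart. Retained intron models held 34.9% of the summed TPM of the 9 members in replicate 1 and 35.5% in replicate 2 (35.2 ± 0.42%). The share was 24.9% and 26.2% of expected counts, and 26.0% and 27.8% of TPM by the second quantification.

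Of the 6 members with such a model, 5 had 20% or more of their TPM there in both libraries, as did 65.5% of 6326 protein-coding genes with such a model at 1 TPM, so the count as such is near the background. The share differed widely between members. Irf3 stood at 71.1% and 69.0% (70.1 ± 1.54%) and Irf7 at 67.8% and 63.4% (65.6 ± 3.14%). Those shares were at percentiles 94.8 and 92.5 of the background genes, whose median was 32.5%. Irf2 stood at 44.2% and 47.6% (45.9 ± 2.44%), Irf9 at 41.3% and 34.6% (38.0 ± 4.76%) and Irf8 at 37.5% and 35.8% (36.7 ± 1.23%). Irf1 was lowest at 20.2% and 13.6% (16.9 ± 4.68%), at percentile 22.0. The background genes were not matched for their number of retained intron models, which is 6 for Irf3 and Irf7 and 1 for Irf1. Its bearing on the percentiles was not tested.

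Irf3 and Irf7 stayed the highest of the members under the other measures. By share of expected counts, Irf3 had 58.0% and 54.3% and Irf7 66.9% and 61.4%, at percentiles 87.5 and 91.6. Irf2 was not far below on that measure, with 47.0% and 49.4%, at percentile 81.8. Irf8 and Irf9 stood at percentiles 73.9 and 70.2 by counts, where the background median was 20%. By the second quantification Irf3 had 68.1% and 66.9% and Irf7 72.7% and 69.3%, at percentiles 90.8 and 92.9. Irf1 stayed low, at 8.92% and 5.17% of counts and 11.7% and 9.64% by the second quantification. Irf2 and Irf8 depended on the quantification: by the second one Irf2 had 30.1% and 28.1% and Irf8 29.6% and 28.5%, at percentiles 37.4 and 37.2 of a background whose median was then 36.6%. Irf9 stood at 44.5% and 38.5% by the second quantification.

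**Figure D3:**
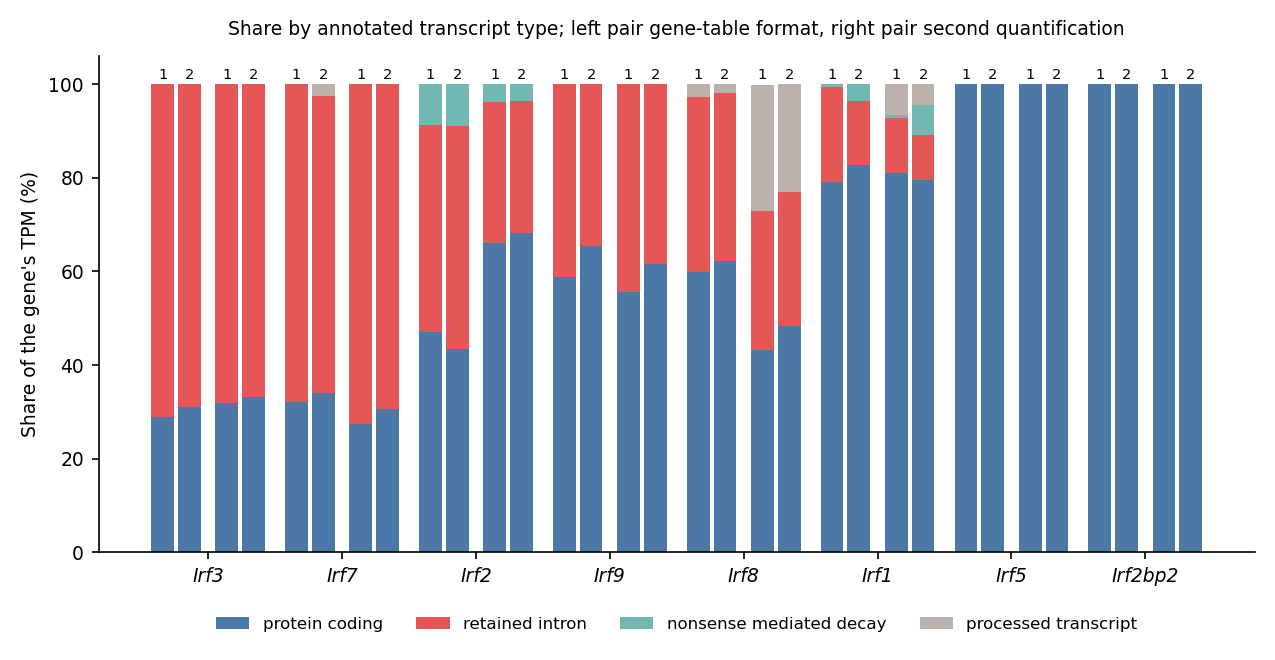
Share of each gene's TPM (y axis, percent) by annotated transcript type, for replicates 1 and 2 in the transcript tables of the gene-table format (left pair) and in the second quantification (right pair). Retained intron models, in red, hold over 60% of Irf3 and Irf7 in all 4 columns. Irf4, under 1 TPM and without such a model, is not drawn.

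The introns kept by Irf7-210, the leading model of Irf7, and by Irf3-207 are short enough to print whole. In these models only 3.59% and 5.97% of the bases lie outside coding-model exons. Some other retained intron models hold far more such sequence, with 45.5% in Irf3-210 and 93.5% in Irf8-207. Each printed intron is given 5′ to 3′ on the gene's strand, with 15 bases of exon on either side. The first and last intron bases are in capitals, and the sequences were read from GENCODE M21 transcripts. The intron of Irf7 lies at chr7:141264656-141264724, minus strand, and that of Irf3 at chr7:45000547-45000644, plus strand.
Irf7 intron 5: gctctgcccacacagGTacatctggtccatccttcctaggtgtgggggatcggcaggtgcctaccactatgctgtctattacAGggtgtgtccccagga
Irf3 intron 5: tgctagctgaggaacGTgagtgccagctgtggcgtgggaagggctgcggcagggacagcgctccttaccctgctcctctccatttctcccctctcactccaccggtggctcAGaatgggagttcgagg
Both have the GT and AG ends of ordinary introns. The Irf7 intron is 69 bases long, a multiple of 3, and holds 1 stop codon in the frame of the exon before it. The Irf3 intron is 98 bases long, which is not a multiple of 3, and holds 0 stop codons in that frame.

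Irf7-210, which keeps intron 5 of 9 and is otherwise spliced, was the leading Irf7 model in both libraries. It had 21.6 TPM in replicate 1 and 13.4 TPM in replicate 2, or 40.9% and 34.4% of the gene. The coding models Irf7-201 and Irf7-203 were each the leading coding model in 1 library, with 6.94 and 6.02 TPM for the former and 7.36 and 4.63 TPM for the latter. Irf7-210 is 1922 bases long, of which 3.59% lie outside coding-model exons. The deposited intervals of Irf7-210 (17.7 to 22.8 and 9.91 to 14.7 TPM) lay above those of Irf7-201 (4.35 to 9.01 and 3.42 to 7.58 TPM) in each library. By the second quantification Irf7-210 held 41.0% and 34.8% of the gene. Irf7-213, a single exon of 3240 bases that keeps all 9 introns, as unspliced RNA would, had 7.09 and 3.69 TPM, or 13.4% and 9.49%. The rest of the retained intron share fell on Irf7-205 (2.16 and 3.92 TPM), Irf7-211 (3.51 and 3.34 TPM) and minor models.

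Irf3 was spread over several models. Irf3-210, of 2 exons, crosses the end of intron 6 with 286 intron bases and had 13.3 TPM in replicate 1 and 13.2 TPM in replicate 2, or 23.4% and 28.8% of the gene. Irf3-207, which keeps intron 5 of 7, had 7.94 and 6.42 TPM. Irf3-208 (6.60 and 7.89 TPM) also crosses a splice site of intron 6, and Irf3-212 (7.79 and 3.53 TPM) one of intron 1. Irf3-209 had 4.74 TPM in replicate 1 and was listed at 0 in replicate 2. Of the coding models, Irf3-206 had 6.85 and 6.30 TPM, Irf3-213 had 4.52 and 3.91 TPM, and Irf3-201 had 3.87 and 3.99 TPM. By TPM, no coding model of Irf3 reached the level of Irf3-210 in either library. Irf3-210 is only 629 bases long, and by expected counts (120 and 79.3) it did not lead. The coding models Irf3-201 (157 and 105) and Irf3-213 (151 and 84.8) had more counts, and Irf3-206 (98.9 and 59.8) had fewer. Irf3-207 had the most, with 252 and 132.

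Other retained intron models cross a splice site and begin or end inside an intron. Irf2-207 begins in intron 5 and ends in intron 6. Each crossed site is shown with the intron's first or last bases in capitals.
Irf8-207, start of intron 2: gcttccatcttcaagGTaaagcctcctg
Irf3-210, end of intron 6: cttgggttcccAGatctgattgccttca
Irf1-210, end of intron 3: ttccgtcctgtAGgccgatacaaagcag
Irf2-207, end of intron 5: ttcttcttcctAGcaagaaccagttgag
Irf2-207, start of intron 6: cggtgaacatcatagGTaaactgttttg
Irf8-207 reads from exon 2 through 3243 of the 3714 bases of intron 2 (chr8:120739992-120743705) and ends there. It had 23.9 and 19.0 TPM, or 30.8% and 29.3% of the gene, and 93.5% of its 3469 bases lie outside coding-model exons. The coding model Irf8-201 had 40.9 and 37.2 TPM, above Irf8-207 in each library. By the second quantification Irf8-207 held 18.1% and 18.4%. There the short processed transcript Irf8-203 took 27.0% and 23.2%, against 2.72% and 1.89% in the other tables.

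**Figure D4:**
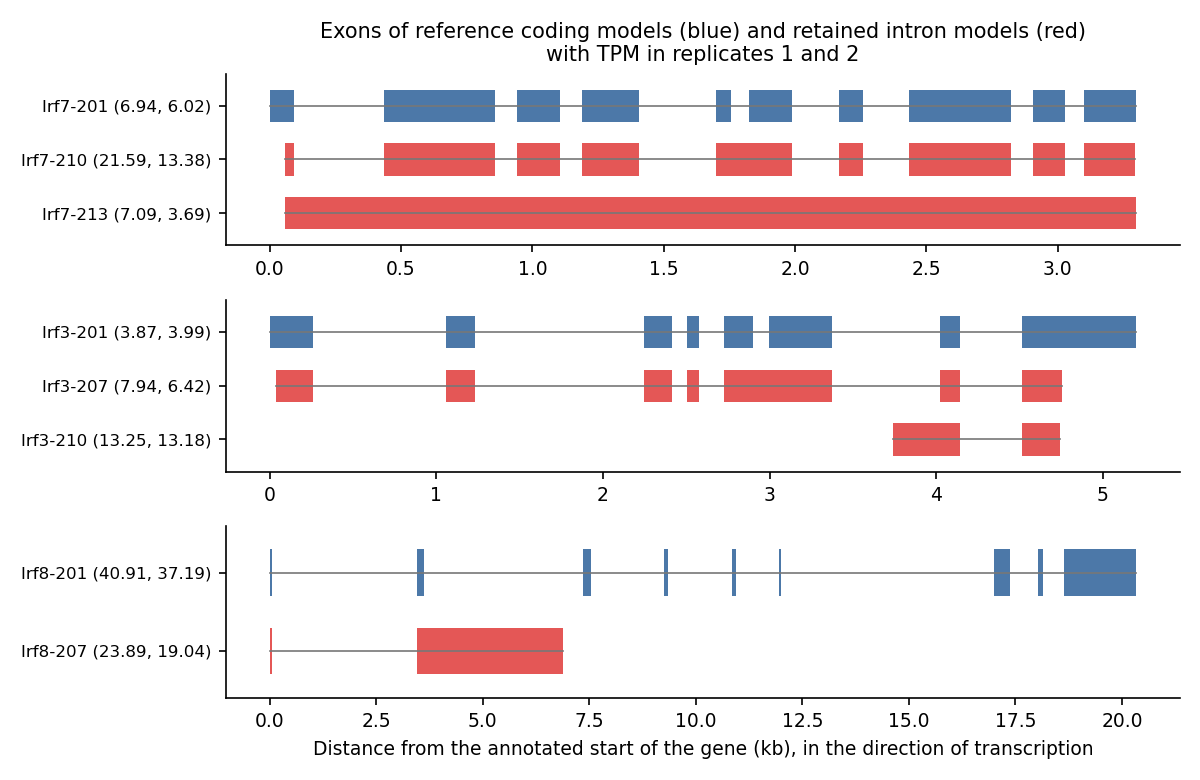
Exons (boxes) and introns (lines) of coding and retained intron models of Irf7, Irf3 and Irf8, by distance in kb from the annotated gene start, with TPM in replicates 1 and 2 beside each name. Irf7-210 differs from Irf7-201 inside the gene by 1 filled intron, whereas Irf8-207 ends within intron 2.

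Irf2-207 is a single exon of 3965 bases around exon 6, with 97.0% outside coding-model exons, and had 9.18 and 9.47 TPM. Irf2-211, of 397 bases, had 9.62 and 11.8 TPM on 37.2 and 31.4 counts, so its level is thinly supported beside the 771 and 514 counts of Irf2-207. The coding Irf2-201 had 13.5 and 12.3 TPM, the highest of the gene. Irf2-210, typed as a target of nonsense-mediated decay, had 4.76 and 4.44 TPM, or 8.84% and 8.88%. By the second quantification the short coding model Irf2-203 led with 33.0% and 36.2%, where the other tables gave it 4.68% and 9.10%.

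Irf9-206, which keeps introns 5 to 8 in 3869 bases, had 4.69 and 4.29 TPM, and Irf9-204, which crosses a splice site of intron 1, had 5.85 and 4.01 TPM. The coding models of Irf9 changed places between the libraries. Irf9-202 had 8.80 TPM in replicate 1 and 3.17 TPM in replicate 2, while Irf9-205 had 3.37 and 10.1 TPM. The deposited intervals of the libraries did not overlap for either model (5.84 to 11.0 against 1.56 to 5.40 TPM for Irf9-202, 0.151 to 5.73 against 6.47 to 11.1 TPM for Irf9-205). The models share 2200 bases and 7 of 8 introns, and their coding parts are 1197 and 1251 bases long. Their gene's level stayed within 26.0 and 24.0 TPM. By the second quantification Irf9-202 led in both libraries, with 39.8% and 29.9%, and Irf9-205 had 1.07% and 16.6%, again higher in replicate 2.

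Irf1 was carried mostly by coding models. Irf1-202 had 23.9 and 15.7 TPM and Irf1-201 had 17.1 and 9.49 TPM, models with the same 987 coding bases. Irf1-207, a short coding model, had 16.1 TPM on 108 counts in replicate 1 and 2.90 TPM on 13.1 counts in replicate 2. Irf1-210, the retained intron model, had 16.7 TPM on 215 counts and 5.31 TPM on 45.0 counts. These 2 short models account for 24.6 of the 43.5 TPM by which the libraries differ, although they hold few counts. Irf1-203 had 8.33 and 4.22 TPM. All 5 were higher in replicate 1. By the second quantification Irf1-201, Irf1-203, Irf1-207 and Irf1-210 were again higher in replicate 1, but Irf1-202 was lower (6.09 and 9.84 TPM). There Irf1-207 led in replicate 1 with 20.2 TPM, or 33.4%, and had 3.52 TPM in replicate 2, where Irf1-202 led. Irf1-208 (5.71 and 3.11 TPM) and Irf1-205 (4.02 and 1.49 TPM) were listed at 0 in the other tables.

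Every Irf5 model with a mean of 1 TPM or more was coding. Irf5-201 had 27.7 and 24.5 TPM and Irf5-202 had 12.5 and 4.67 TPM, models with the same 1491 coding bases that differ outside the coding exons. By the second quantification Irf5-201 had 9.62% and 6.01%, Irf5-202 had 32.7% and 41.3%, and Irf5-203, listed at 0 in the other tables, had 42.7% and 26.1%. The leading model of Irf5 thus depended on the quantification. Irf2bp2 has a single model.

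**Figure D5:**
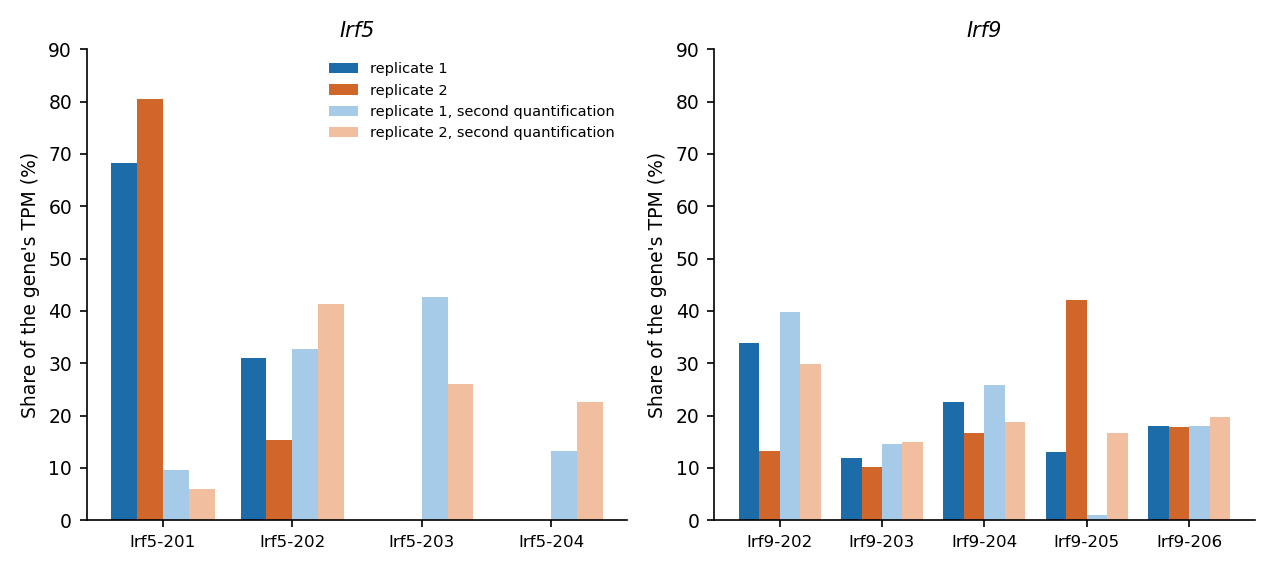
Share of the gene's TPM (y axis, percent) held by each model of Irf5 and Irf9 with at least 5% in any column. Dark bars are the tables of the gene-table format and pale bars the second quantification, for replicates 1 and 2. Irf5-201 leads in the dark bars and not in the pale ones, and Irf9-205 is higher in replicate 2 in both.

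Counting protein-coding models only, an alternative added after seeing the data, changed the order. Irf1 (48.8 ± 23.4 TPM), Irf2bp2 (46.9 ± 15.7 TPM) and Irf8 (43.5 ± 4.14 TPM) came first and overlapped. Irf5 followed at 35.5 ± 7.14 TPM, with a range just apart from that of Irf8 but overlapping those of Irf1 and Irf2bp2. Irf2 came next at 23.5 ± 2.5 TPM. Irf9 (15.5 ± 0.304 TPM), Irf3 (15.3 ± 1.52 TPM) and Irf7 (15.1 ± 2.67 TPM) overlapped one another. The coding models gave another order by the second quantification, with Irf5 first at 47.0 TPM by mean, then Irf1 (38.0 TPM), Irf2 (37.5 TPM), Irf8 (27.4 TPM) and Irf2bp2 (23.4 TPM). Irf3 (10.2 TPM), Irf9 (7.93 TPM) and Irf7 (6.51 TPM) followed there too, above Irf4 only.

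Overlapping genes limit some levels, since no source used here gives the handling of strand. Exons of the antisense gene Gm26759 cover 1039 bases, or 20.5%, of the exonic bases of Irf2bp2, and exons of Tnpo3 on the opposite strand cover 411 bases, or 14.1%, of Irf5. The overlap was 3.40% for Irf1 (Gm17334), 2.56% for Irf3 (Bcl2l12), 2.28% for Irf9 (Rnf31, on the same strand) and 1.19% for Irf7 (Phrf1). Exons of Irf2 and Irf8 overlapped none. Reads in the shared bases cannot be attributed with certainty.

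Genes that act on or with the members were given from lists. Of 26 matched genes of the pathway that activates the factors, 26 were at 1 TPM in both libraries. Ikbke, the kinase related to Tbk1, had 135 ± 13.8 TPM, the co-receptor Cd14 had 120 ± 68.2 TPM, and the Irf3 kinase Tbk1 had 71.4 ± 11.8 TPM. Tlr3, the receptor for double-stranded RNA, was lowest at 5.19 ± 1.44 TPM. Of 10 partners, 9 were detected: Stat2 had 102 ± 0.467 TPM and the coactivator Ep300 53.2 ± 2.31 TPM, while Spib, the lymphoid relative of Spi1, had 0.16 TPM. Stat2 stood above Irf9 itself in both libraries, at 101 and 102 TPM.

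Of 15 type I interferon genes, 0 were detected at 1 TPM. Ifnb1, the target of Irf3, had 0.85 TPM on 10 counts in replicate 1 and was listed at 0 in replicate 2, and the other 14 were listed at 0 in both. Ifna16 alone of the 15 passed the limit by the second quantification, with 1.61 and 1.81 TPM. All 7 receptor and kinase genes were detected, led by Ifnar2 (56.8 ± 2.88 TPM), Ifnar1 (48.3 ± 3.56 TPM) and Ifngr1 (46.6 ± 10.4 TPM), with Jak2 lowest at 10.8 ± 0.643 TPM. All 21 genes with response elements were detected, among them Oasl2 (176 ± 5.07 TPM), Rsad2 (78.8 ± 17.7 TPM) and Ifit2 (68.9 ± 8.13 TPM), with the class II transactivator Ciita lowest at 3.17 ± 0.651 TPM. Of 13 negative regulators, 12 were detected, led by Trim30a (93.8 ± 4.28 TPM), Nlrc5 (71.6 ± 4.75 TPM) and the phosphatase Dusp1 (58.1 ± 29.8 TPM), and Socs1 was lowest at 0.65 ± 0.212 TPM. Of the remaining relatives, Irf2bpl had 5.18 ± 1.43 TPM and Irf2bp1 3.92 ± 1.43 TPM, both under every detected member.

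Set beside the members' median library difference of 0.13, the median was 0.13 for the activation genes, 0.20 for the partners, 0.12 for receptors and kinases, 0.30 for the response element genes and -0.03 for the negative regulators. Over 2-fold higher in replicate 1, as were 1.48% of all genes tested, were 1 of 26 activation genes (Cd14, 1.09), 2 of 21 response element genes (Cxcl10, 2.04, and Isg15, 1.33) and 2 of 12 negative regulators (Dusp1, 1.08, and Tnfaip3, just over 1.00). Cxcl10, Isg15 and Tnfaip3, like Ifna16, Cd3d and Siglech above, fall outside the rule for named genes and were named after their values were seen. The members, at 0.72 or less, lay within 2-fold.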

How the data were processed

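Per the deposited text beside the tables, the authors quantified each library from transcriptome alignments to mm10 with GENCODE M21 in a gene table and a transcript table, and from the reads in a second transcript table. The programs and strand settings are not given in the sources used here. Expected counts, deposited by the authors, are estimates, rounded here before edgeR and DESeq2. Each table's TPM was scaled by the authors over all of its entries. Their deposited intervals of TPM (treated as a signal, at 0 or more) surround the posterior mean, and the percent of a gene's TPM held by each transcript was deposited by the authors too. Entries that name no annotated gene (1.18% and 0.405% of counts) were left out.

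Replicates came from the labels. The second quantification was summed per gene. Library differences used TMM (edgeR 4.0.16, R 4.3.3), 1 added to each scaled count and genes averaging 50 counts or more, and DESeq2 1.42.0 size factors as an alternative. The calculation of differences was tested on simulated data. With 1 group of 2 libraries no test was run. Counting intervals are 95% Poisson; they cover counting error only, and the labels name no molecular identifiers that would mark PCR copies. Transcript types, introns and overlaps came from the M21 annotation and promoters from RefSeq. A planned comparison of member proteins was not run. Python 3.11.15 with pandas 2.3.3, numpy 2.4.6 and scipy 1.17.1 was used.

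Members and gene lists were chosen with earlier results of these data known. Named were all 9 members, of each list the 3 highest and the lowest, and transcripts with a mean of 1 TPM or 10% of the gene. Some genes that this rule allows are not reported here. Of the lists, 1 symbol (Mb21d1) matched no gene. Alternatives were other detection limits, pseudocounts, filters and scalings, posterior means, the second quantification and each library alone. Models of coding type only, ratios of the quantifications centred on the median gene or within 1 library, detection by posterior means and log2(TPM + 1) without centring were added after seeing the data.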

Additional observations from a re-analysis of the deposited data

How the results depend on the processing

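The number of detected members was 8 by the second quantification, at 5 TPM and in each library alone, and 9 at 0.1 TPM or by posterior means. The count of 0 members over 2-fold apart between libraries held under DESeq2 size factors, pseudocounts of 0.5 and 10, no filter, centred log2(TPM + 1) and the second quantification. Without centring, log2(TPM + 1) placed 1 member (Irf1) over 2-fold apart. Their median difference was 0.13 except on centred log2(TPM + 1), where it was 0.21, and 0.30 without centring. The count of 0 members over 2-fold apart between the quantifications was 0 without replicate 1 and 4 without replicate 2. The retained intron share of the members' TPM, 35.2%, was 25.5% of expected counts, 26.9% by the second quantification and 35.7% with processed transcripts included. The cause was not tested. No paired analysis was possible because all libraries belong to 1 group.

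Member levels moved by more than their SD for 8 of 9 members by the second quantification, 9 of 9 when TPM was rescaled to protein-coding genes, 5 of 9 for coding models only and 1 of 9 (Irf4) for posterior means. The rescaling multiplies all genes of a library by the same factor (Irf8 from 71.4 to 236 TPM, Irf9 from 25.0 to 82.8 TPM). Its 9 of 9 therefore reflects a change of unit and says nothing about relative levels. Depth limits Irf4 and short models with few counts, and 2 libraries give a coarse SD.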
